A study of Mus musculus with 9 samples.

Results

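Collagen VI and the fibril-associated collagens were described here through 8 genes of the deposited count table: Col6a1, Col6a2, Col6a3, Col6a5 and Col6a6 for the chains of collagen VI, and Col12a1, Col14a1 and Col16a1 for the fibril-associated collagens. The members were taken by gene name, and each matched 1 of the 56748 genes in the table. RNA-seq was performed on epididymal adipose tissue, a visceral fat depot, of wild-type male C57BL/6J mice fed a high-fat diet (HFD) from 8 weeks of age for 8 weeks. Libraries were made before weight loss (Pre), after 1 week of standard diet (WL1) and after 2 weeks of standard diet (WL2), with 3 libraries per phase. Every group thus carried the same period of HFD feeding, and no group of lean mice or of mice kept on HFD for the added weeks was among the libraries, so that time and diet cannot be told apart. The labels do not say whether each library came from 1 mouse, and p-values measure the spread between these libraries, which may be technical.

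Collagen VI is built from triple helices in which the chains of Col6a1 and Col6a2 join a longer chain, most often that of Col6a3, and the helices assemble into beaded microfilaments around cells. The chains of Col6a5 and Col6a6 can take the place of the Col6a3 chain. In fat, collagen VI forms a large share of the matrix around adipocytes, and a fragment released from the end of the Col6a3 chain, endotrophin, is known as a signal linked to fibrosis. The fibril-associated collagens form no fibrils of their own but lie along the surface of fibrils of collagen I and join them to their surroundings.

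In brief, 5 of the 8 chains fell over the 2 weeks of weight loss, a direction and threshold that 6.66% of all tested genes met (edgeR's quasi-likelihood test, Benjamini-Hochberg adjusted p under 0.05). Col6a2, Col12a1 and Col6a1 fell in each week, Col16a1 fell in the second week, and Col6a3 passed the test in the second week and over the whole period. The Col12a1 calls were lost under 6 of 18 other settings in the first week and 12 of 18 in the second. The second-week calls of Col6a1, Col6a2 and Col6a3 were lost when certain single libraries were left out. Col6a5, Col6a6 and Col14a1 did not pass the test in any comparison.

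The genes of Col6a1 (ENSMUSG00000001119, 76544626 to 76562002) and Col6a2 (ENSMUSG00000020241, 76431596 to 76459464) are neighbours on the minus strand of chromosome 10, 85.16 kb apart, with 0 protein-coding genes between them. Col6a6 (ENSMUSG00000043719, 105565008 to 105705359) and Col6a5 (ENSMUSG00000091345, 105733277 to 105837842) are likewise neighbours on the minus strand of chromosome 9. The other members are single genes: Col6a3 (ENSMUSG00000048126) at 90693645 to 90771693 on chromosome 1, Col12a1 (ENSMUSG00000032332) at 79506273 to 79626113 on chromosome 9, Col14a1 (ENSMUSG00000022371) at 55171146 to 55384199 on chromosome 15 and Col16a1 (ENSMUSG00000040690) at 129941633 to 129993076 on chromosome 4. These positions are those of the deposited table. The processing notes name GRCm38, but only 1472 of 52073 genes shared with a GRCm38 annotation (GENCODE M21) had the same coordinates, so no build is given for them. Genes that overlap a member held at most 0.117% of that member's counts.

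The promoters of 4 chains that fell are shown because Col6a1 and Col6a2 moved together, whereas Col6a3 and Col16a1 passed only in comparisons with WL2. Passing in some comparisons only does not show that Col6a3 fell at another time than Col6a1 and Col6a2. Each line gives the 250 bases before the start of transcription from RefSeq (GRCm38.p6), 5′ to 3′ on the strand of the gene, with matches to a searched motif in capitals; the bases cover chr10:76726045-76726294 for Col6a1, chr10:76623405-76623654 for the first of 2 starts of Col6a2, chr1:90843972-90844221 for Col6a3 and chr4:130047590-130047839 for Col16a1.
Col6a1: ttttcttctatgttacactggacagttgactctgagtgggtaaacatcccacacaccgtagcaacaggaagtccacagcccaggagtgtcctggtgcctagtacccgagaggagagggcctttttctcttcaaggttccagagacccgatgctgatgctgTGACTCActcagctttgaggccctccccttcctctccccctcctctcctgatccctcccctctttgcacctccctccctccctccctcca
Col6a2: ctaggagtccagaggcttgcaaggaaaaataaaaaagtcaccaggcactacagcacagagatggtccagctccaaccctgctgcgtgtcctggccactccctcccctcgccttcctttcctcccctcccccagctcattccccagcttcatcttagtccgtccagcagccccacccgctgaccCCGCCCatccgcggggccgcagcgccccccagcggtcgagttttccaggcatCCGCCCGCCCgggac
Col6a3: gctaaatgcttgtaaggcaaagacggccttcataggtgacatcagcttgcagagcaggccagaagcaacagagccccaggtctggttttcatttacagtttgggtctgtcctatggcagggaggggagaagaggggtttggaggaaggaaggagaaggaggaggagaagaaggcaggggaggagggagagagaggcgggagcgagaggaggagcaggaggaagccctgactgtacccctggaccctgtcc
Col16a1: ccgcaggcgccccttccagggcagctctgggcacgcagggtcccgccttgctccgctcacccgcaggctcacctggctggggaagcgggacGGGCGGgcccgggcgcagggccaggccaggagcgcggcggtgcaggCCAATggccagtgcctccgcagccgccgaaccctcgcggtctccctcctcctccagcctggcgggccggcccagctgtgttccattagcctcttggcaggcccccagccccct

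Letters for 5 motifs were searched on both strands: the TATA box (TATAAA), the GC box (GGGCGG), the CCAAT box (CCAAT), a SMAD element (CAGACA) and the AP-1 site (TGANTCA). The Col6a1 promoter held 1 AP-1 match, 90 bases before the start, and no match to the other 4 motifs. The first Col6a2 promoter held 3 GC boxes on the opposite strand, 2 of which overlap 15 and 11 bases before the start. The Col6a3 promoter held none of the 5 motifs. Col16a1 had 1 GC box and 1 CCAAT box in a window with a GC content of 75.6%, against a median of 52.4% over all promoters. Of 32851 mouse promoters of the same length, 6.75% held the AP-1 letters, 32.7% a GC box and 33.8% a CCAAT box. No TATAAA or CAGACA was found in the 7 promoters that matched 6 of the 8 members. These matches are descriptions of letters and were not tested against the changes in mRNA.

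Levels are given as CPM, a gene's count divided by the library's total and scaled to a common depth. Library totals ranged from 16434450 to 22729072 counts, and 18510 genes, among them all 8 members, reached the minimum of 0.5 CPM in 1 or more libraries. Adipocyte markers (12 genes) summed to 32790 to 41350 CPM in Pre, 22690 to 30130 in WL1 and 34050 to 36820 in WL2, and 8 epididymis markers summed to at most 0.510 CPM. The sum of 10 lymphocyte markers stood at 218.4 CPM in Pre replicate 2 and at 7.79 to 20.7 CPM in the other 8 libraries; without that replicate, 2 rather than 3 members passed at WL1 against Pre (Col12a1 did not) and 5 still passed at WL2. In bulk tissue, fewer cells of a type and less RNA per cell cannot be told apart. All CPM values below are scaled with TMM, which corrects library totals for composition.

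Compared per length, as FPKM over the 9 libraries, Col6a1 (mean 217.2 FPKM) and Col6a2 (108.4) had the highest levels, followed by Col6a3 (20.3), Col14a1 (14.9), Col16a1 (10.4), Col6a5 (4.18), Col6a6 (1.59) and Col12a1 (1.48). The order of the first 2 depends on the length used. The table divides Col6a2 by 8326 bases, the union of all its exons, whereas its transcript with the longest coding sequence has 3949 bases; Col6a1 has 4380 and 4100. With the transcript lengths, the ratio of Col6a1 to Col6a2 was 0.903 to 0.969 in Pre and 1.20 to 1.25 in WL2. Neighbours in this order were not apart in every phase. In WL2, Col6a3 (11.1 to 12.5 FPKM, mean 11.9) overlapped Col14a1 (11.9 to 14.6, mean 13.0) and had the lower mean. Col12a1 (2.49 ± 0.564 FPKM) lay above Col6a6 (1.80 ± 0.0851) in Pre and below it in WL2 (0.684 ± 0.182 against 1.28 ± 0.331; SD, n = 3), and Col14a1 and Col16a1 overlapped in Pre and WL1. Together the 8 genes took 0.329% to 0.398% of all counts in Pre, 0.200% to 0.259% in WL1 and 0.132% to 0.152% in WL2.

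**Figure D1:**
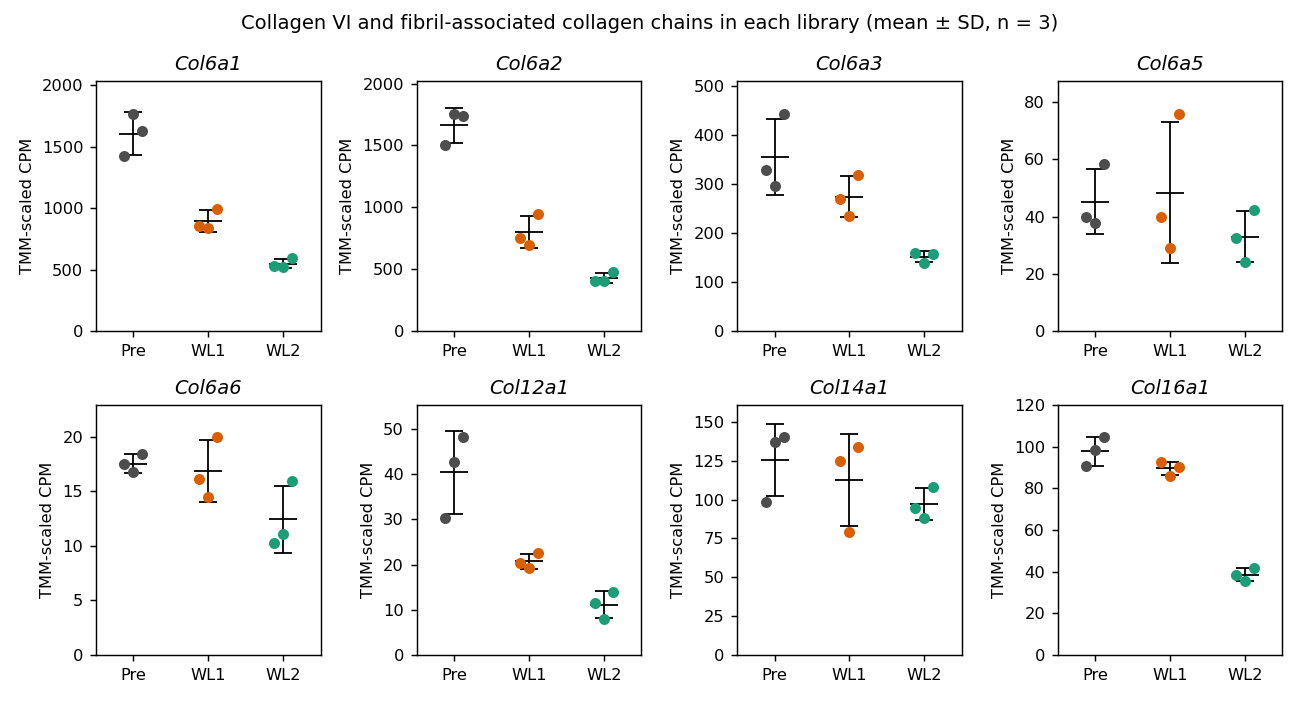
TMM-scaled CPM (vertical axes, from 0) of the 8 chains in the 3 libraries of Pre, WL1 and WL2; points are libraries and bars show the mean ± SD (n = 3). The 3 phases do not overlap for Col6a1, Col6a2 and Col12a1, WL2 lies below the other phases for Col6a3 and Col16a1, and the phases overlap for Col6a5 and Col14a1.

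Col6a1, which encodes one of the chains present in every collagen VI helix, stood at 1426, 1769 and 1627 CPM in Pre. In WL1 the libraries held 856, 836 and 998 CPM, and in WL2 530.0, 525 and 594 CPM. The 3 phases did not overlap, and all libraries of a later phase lay below all of an earlier one. Col6a1 fell by 0.84 on the log2 scale at WL1 against Pre (SE 0.124, edgeR adjusted p = 0.00426) and by 0.71 at WL2 against WL1 (SE 0.124, edgeR adjusted p = 0.0196), and reached 34.2% of its Pre level at WL2 (log2 fold change -1.55, SE 0.126, edgeR adjusted p = 6.62e-05). The call between WL2 and WL1 was lost without WL1 replicate 3 (edgeR adjusted p = 0.0767), WL2 replicate 2 (0.113) or WL2 replicate 3 (0.0613).

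Col6a2, the partner chain of Col6a1, stood at 1502, 1757 and 1735 CPM in Pre, 755, 698 and 948 CPM in WL1, and 407, 409.0 and 474 CPM in WL2. Again no phase overlapped another. Col6a2 fell to 48.1% of Pre at WL1 (log2 fold change -1.06, SE 0.140, edgeR adjusted p = 0.00232) and to 25.8% of Pre at WL2 (-1.95, SE 0.144, edgeR adjusted p = 3.31e-05). At WL2 against WL1 it fell by 0.90 on the log2 scale (SE 0.140, edgeR adjusted p = 0.0122), a call that was lost without WL2 replicate 2 (edgeR adjusted p = 0.0813).

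Col6a3, the long chain from which endotrophin is cut, stood at 327, 296 and 443 CPM in Pre. In WL1 it stood at 270.1, 234 and 318 CPM, within reach of the Pre libraries, and in WL2 at 159.0, 139.9 and 158 CPM, below every other library. The difference at WL1 did not pass the test (log2 fold change -0.38, 95% interval -0.74 to -0.01, edgeR adjusted p = 0.194). At WL2, Col6a3 fell to 42.8% of Pre (log2 fold change -1.22, SE 0.168, edgeR adjusted p = 0.00143) and to 55.5% of WL1 (-0.85, SE 0.167, edgeR adjusted p = 0.0270). The second of these was lost without WL1 replicate 1 (edgeR adjusted p = 0.0623), WL1 replicate 3 (0.112), WL2 replicate 2 (0.144) or WL2 replicate 3 (0.0995).

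The alternative long chains had lower FPKM, and their changes were not tested against that of Col6a3. Col6a5 stood at 39.9, 37.6 and 58.3 CPM in Pre, 40.0, 29.0 and 75.9 CPM in WL1, and 32.4, 24.2 and 42.2 CPM in WL2. The phases overlapped, and the third library of each phase was the highest. Col6a5 did not pass the test at WL2 against Pre (log2 fold change -0.46, 95% interval -1.20 to 0.28, edgeR adjusted p = 0.410). Col6a6 stood at 17.5, 16.8 and 18.4 CPM in Pre, 16.2, 14.5 and 20.0 CPM in WL1, and 10.2, 11.1 and 15.98 CPM in WL2. All WL2 libraries of Col6a6 lay below all Pre libraries, but the difference did not pass the test over all genes (log2 fold change -0.50, 95% interval -0.91 to -0.09, edgeR adjusted p = 0.120) except when WL2 replicate 3 was left out (edgeR adjusted p = 0.0430).

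Col12a1, a fibril-associated collagen of tissues under strain, stood at 30.4, 42.6 and 48.1 CPM in Pre, 20.2, 19.1 and 22.6 CPM in WL1, and 11.4, 8.04 and 13.9 CPM in WL2. The phases did not overlap. Col12a1 fell to 51.1% of Pre at WL1 (log2 fold change -0.97, SE 0.209, edgeR adjusted p = 0.0233) and to 27.5% at WL2 (-1.86, SE 0.217, edgeR adjusted p = 0.000579). The fall from WL1 to WL2 lay at the threshold (-0.89, SE 0.215, edgeR adjusted p = 0.0498) and was lost under 12 of 18 other settings, with adjusted p-values up to 0.197 when WL2 replicate 2 was left out. The call at WL1 was lost under 6 of 18, among them each setting without Pre replicate 2 (edgeR adjusted p = 0.0524), Pre replicate 3 (0.0608) or WL1 replicates 1 (0.0705), 2 (0.0776) or 3 (0.0574).

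Col14a1, the close relative of Col12a1 on the fibril surface, stood at 98.7, 137 and 140.1 CPM in Pre, 125, 79.0 and 134 CPM in WL1, and 94.9, 87.9 and 108 CPM in WL2. The phases overlapped in every comparison. Against Pre, WL2 differed by -0.37 on the log2 scale (95% interval -0.82 to 0.08, edgeR adjusted p = 0.274). This interval did not reach that of Col12a1 (-2.34 to -1.38). The ratio of the 2 chains, compared directly between WL2 and Pre, gave p = 0.1 in an exact permutation test (adjusted p = 0.12). With 3 against 3 libraries no smaller p was possible, so that test could not decide whether the 2 chains changed differently.

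Col16a1, a fibril-associated chain found in several tissues, stood at 90.5, 98.4 and 104 CPM in Pre and 92.5, 86.0 and 90.2 CPM in WL1, with overlapping ranges. In WL2 it stood at 38.5, 35.6 and 41.5 CPM, less than every other library. Against Pre, WL1 differed by -0.13 on the log2 scale (95% interval -0.35 to 0.10, edgeR adjusted p = 0.475), whereas Col16a1 fell to 43.0% of WL1 at WL2 (-1.22, SE 0.103, edgeR adjusted p = 0.000907) and to 39.4% of Pre (-1.34, SE 0.103, edgeR adjusted p = 4.38e-05). The difference between the weeks was itself tested, as the change of the second week less that of the first, after the values had been seen. It was -1.09 on the log2 scale for Col16a1 (SE 0.172, edgeR adjusted p = 0.0164), and 1 of the 8 members passed this test in the direction in which 2.81% of all genes did. That call was lost without WL1 replicate 1 (edgeR adjusted p = 0.0591), WL1 replicate 2 (0.0521), WL1 replicate 3 (0.0888) or WL2 replicate 2 (0.0533). For Col6a1 the same difference was 0.14 (95% interval -0.34 to 0.61) and for Col6a2 0.16 (-0.37 to 0.70). For Col6a3 it was -0.47 (-1.10 to 0.16, edgeR adjusted p = 0.388), so a different timing of its fall was not shown.

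**Figure D2:**
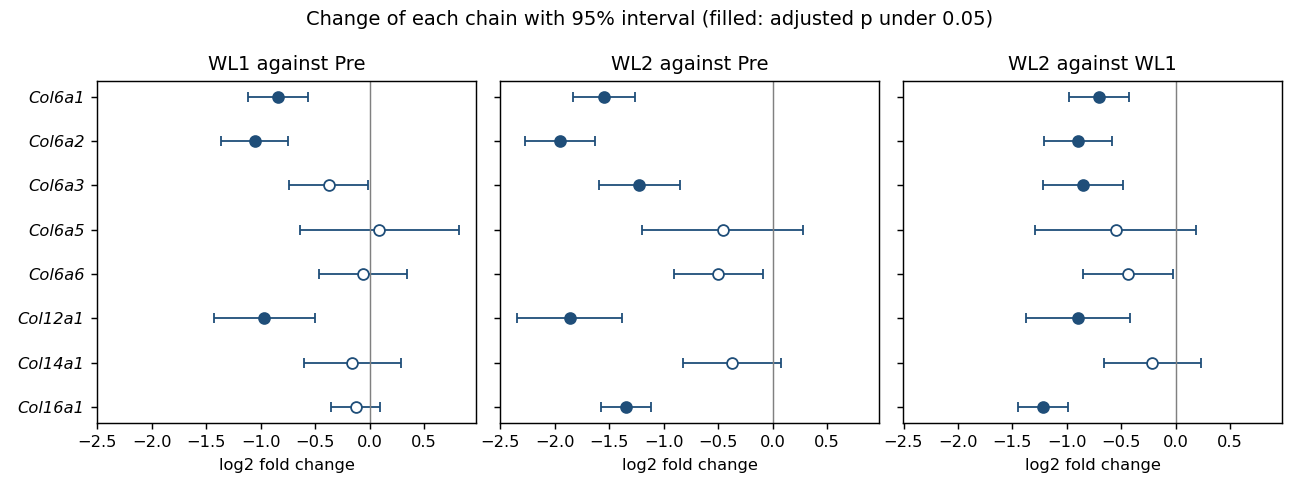
Log2 fold change of each chain (horizontal axis) with its 95% interval from edgeR's quasi-likelihood fit, for WL1 against Pre, WL2 against Pre and WL2 against WL1; filled points passed an adjusted p of 0.05. Col6a1, Col6a2 and Col12a1 are filled in all 3 panels, Col6a3 and Col16a1 in the panels with WL2, and Col6a5, Col6a6 and Col14a1 in none.

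Counted over the members, 3 of 8 passed as lower and 0 as higher at WL1 against Pre, where 4.69% of all tested genes passed as lower and 2.6% as higher (edgeR, Benjamini-Hochberg adjusted p under 0.05). At WL2 against Pre, 5 of 8 passed as lower and 0 as higher, against 6.66% and 3.35% of all genes. At WL2 against WL1, 5 of 8 passed as lower and 0 as higher, against 2.37% and 1.31% of all genes. The median log2 fold change of the 8 members was -0.27, -1.28 and -0.78 in these comparisons, against 0.02, 0.01 and 0.00 over all genes. At unadjusted p under 0.05, 4, 6 and 6 members passed, all lower. The 3 comparisons share libraries and come from 1 fit, in which the third is the second less the first, so they are not independent. When libraries were scaled by their totals alone, the median of all genes moved to 0.12 and 0.16 against Pre and the share of all called genes that were lower went from 64.3% to 39.0% at WL1 and from 66.5% to 35.8% at WL2, but the members still gave 3 and 5 lower calls.

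Some ratios between the mRNAs of collagen VI chains had ranges that did not overlap between phases. The summed FPKM of the 5 chains was 505 to 607 in Pre, 276 to 351 in WL1 and 173 to 201 in WL2. The FPKM ratio of Col6a1 to Col6a2 was 1.78 to 1.91 in Pre, 2.00 to 2.28 in WL1 and 2.38 to 2.47 in WL2, and the phases did not overlap. On the log2 scale the mean ratio was 0.41 higher in WL2 than in Pre, with SDs of 0.0542 and 0.0286 between libraries. This change does not depend on the gene lengths, which cancel. An exact two-sided permutation test of 3 against 3 libraries gave p = 0.1, the smallest that this design allows, so that p under 0.05 could not be reached; over the 12 ratio comparisons made, after the values were seen, the adjusted p was 0.12.

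The ratio of Col6a2 to Col6a3 was 5.63 to 8.52 in Pre, 4.02 to 4.29 in WL1 and 3.68 to 4.33 in WL2. With the lengths of the transcripts with the longest coding sequence, it was 10.02 to 15.2, 7.15 to 7.64 and 6.55 to 7.71, and the shares of FPKM rest on the lengths of the table in the same way. The ratio lay below the Pre range in WL1, and the ranges of WL1 and WL2 overlapped. Other lengths multiply the ratio by the same factor in every library, so this order of the phases could not change with them. The FPKM ratio of Col6a1 to Col6a3 was 10.03 to 16.3 in Pre, 8.57 to 9.77 in WL1 and 9.10 to 10.3 in WL2. Its WL1 range lay below that of Pre, but its WL2 range overlapped Pre, and it was not tested. Col6a3 made up 3.84% to 5.93% of the collagen VI FPKM in Pre, 6.54% to 7.18% in WL1 and 6.21% to 7.08% in WL2. The share of Col6a6 was 0.283% to 0.354% in Pre and 0.595% to 0.823% in WL2, without overlap, although its own level was not higher. Among the fibril-associated chains, the ratio of Col14a1 to Col12a1 was 6.32 to 7.06 in Pre, 8.96 to 13.4 in WL1 and 16.9 to 23.7 in WL2. Col14a1 held 47.8% to 53.0% of the FPKM of the 3 fibril-associated chains in Pre and 67.7% to 68.6% in WL2. The ratio of Col14a1 to Col16a1 overlapped between Pre (1.05 to 1.34) and WL1 (0.884 to 1.43) and was higher in WL2 (2.37 to 2.51).

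**Figure D3:**
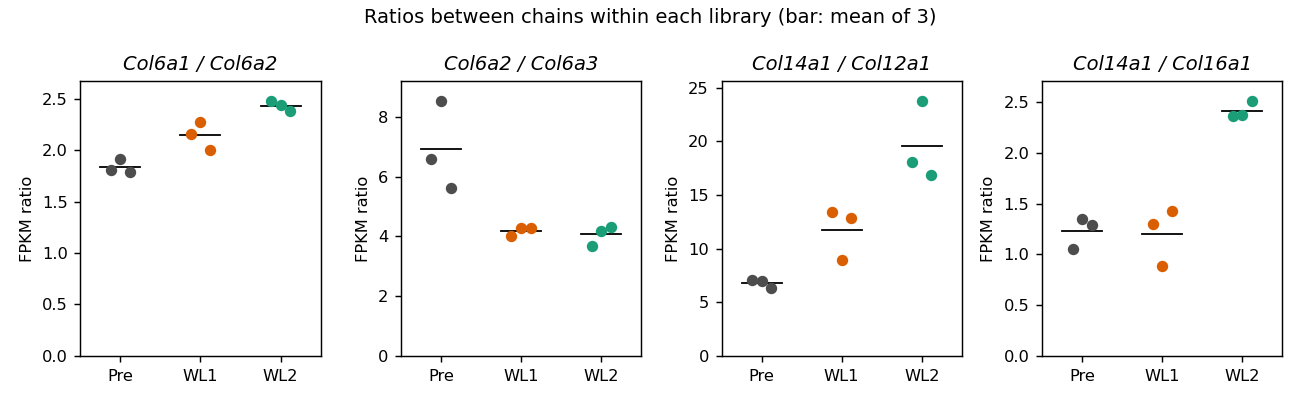
Ratio of FPKM between pairs of chains (vertical axes, from 0) in each of the 3 libraries of Pre, WL1 and WL2; the line is the mean. Col6a1 to Col6a2 and Col14a1 to Col12a1 are higher in each later phase without overlap, Col6a2 to Col6a3 is lower in WL1 and WL2 than in Pre, and Col14a1 to Col16a1 is higher in WL2 than in the other phases.

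Across the 9 libraries, Col6a1 and Col6a2 had a Pearson correlation of 0.998 in log2 CPM, a description of points that share 3 phases. Col6a1 and Col12a1 had 0.974 and Col6a3 and Col16a1 0.936, while Col6a5 had 0.482 with Col6a1 and Col14a1 had 0.615. Among 9698 protein-coding genes outside the 8 members, Col5a3 (r = 0.991), a chain of collagen V, was the one most like Col6a2, and Gys2 (0.985), a glycogen synthase, was also among its nearest. Outside the members, nearest to Col6a1 were Sorl1 (0.987) and Degs1 (0.987). Nearest to Col6a3 were Col5a2 (0.987), another collagen V chain, Adamts2 (0.984), which trims the ends of fibrillar procollagens, and Palld (0.982), an actin-binding protein. Col16a1 lay nearest to Mrc2 (0.985), a receptor that takes up collagen, Mest (0.980) and Slc38a10 (0.980), and Col12a1 to Wbp1l (0.988), Abcc1 (0.980) and Dpy19l1 (0.979). The nearest genes of Col14a1 were Fn1 (0.920), Gucd1 (0.914) and Disp1 (0.909), those of Col6a5 were Fig4 (0.937), Vcan (0.937) and Gpr153 (0.920), and those of Col6a6 were Gdap2 (0.918), Kctd9 (0.915) and Fbxl20 (0.910).

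Of 8 further chains related to the members, 7 had a row and 4 were tested. Col6a4, the third alternative long chain, whose gene lies beside Col6a5, had at most 2.70 CPM in any library. Col20a1, a fibril-associated chain, rose at WL2 against Pre (log2 fold change 1.54, SE 0.355, edgeR adjusted p = 0.0222), from 0.944, 1.38 and 2.58 CPM to 4.16, 4.47 and 5.85 CPM. It was the only one of the 4 to pass, and its call was lost without Pre replicates 1 (edgeR adjusted p = 0.0521) or 2 (0.0563) or WL2 replicates 2 (0.0647) or 3 (0.0863). The call was also lost with the compared phases fitted alone (edgeR adjusted p = 0.0515).

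Among 10 receptors that bind collagen VI or its fragments, 1 was lower at WL1 and 2 at WL2 against Pre, and none was higher. Cspg4, the proteoglycan NG2, which binds collagen VI at the cell surface, fell from 66.1 ± 7.45 CPM in Pre to 26.3 ± 5.14 in WL1 and 18.9 ± 2.34 in WL2 (SD, n = 3, log2 fold change at WL2 -1.80, edgeR adjusted p = 0.000129). Mcam, a cell adhesion molecule of vessels, fell by 0.60 at WL2 (edgeR adjusted p = 0.0461), a call lost under 12 of 18 other settings with adjusted p-values up to 0.121. The median of the 10 was -0.10 at WL2, and the integrin and anthrax toxin receptor genes in the list did not pass.

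Of 11 matrix partners, 2 were lower and 1 higher at WL2 against Pre, with a median of -0.53. Hspg2, which encodes perlecan of basement membranes, fell from 2585 ± 477 CPM to 918 ± 114 CPM (SD, n = 3, log2 fold change -1.49, edgeR adjusted p = 0.000472). Matn2, a matrilin, of a family that links collagen VI filaments to other matrix, fell by 1.42 (edgeR adjusted p = 0.000567) and was the 1 partner that passed at WL1 (-0.91, edgeR adjusted p = 0.0110). Dcn, which encodes decorin, a proteoglycan that binds collagen fibrils and collagen VI, rose from 701 ± 145 to 1250 ± 211 CPM (SD, n = 3, log2 fold change 0.84, edgeR adjusted p = 0.0215), a call lost without Pre replicates 1 or 2 or WL2 replicates 2 or 3 (edgeR adjusted p = 0.0645, 0.0530, 0.0782 and 0.0866).

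Among 6 proteases that act on collagen VI or its precursors, 2 were higher at WL1. Mmp11, which cleaves the Col6a3 chain, rose by 1.45 at WL1 (edgeR adjusted p = 0.00502) and stood 0.95 above Pre at WL2 (edgeR adjusted p = 0.0238). Mmp14, a membrane-bound matrix protease named after its values were seen, rose by 0.81 at WL1 (edgeR adjusted p = 0.0262). Bmp1, which processes procollagens and the Col6a3 chain, fell by 0.81 at WL2 (edgeR adjusted p = 0.00278). The call of Mmp11 at WL2 was lost without Pre replicates 2 (edgeR adjusted p = 0.0658) or 3 (0.0644) or WL2 replicates 1 (0.0596) or 2 (0.0995). It was also lost with the compared phases fitted alone (edgeR adjusted p = 0.059).

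Of the 11 fibril-forming collagen genes, 9 were tested; 2 were lower at WL1 and 4 at WL2 against Pre, and none was higher. The largest falls at WL2 were those of the collagen V chains Col5a3 (-1.85, edgeR adjusted p = 4.31e-05), Col5a1 (-1.59, edgeR adjusted p = 0.000103) and Col5a2 (-1.12, edgeR adjusted p = 0.00365). Col3a1, named after its values were seen, also passed (-0.89, edgeR adjusted p = 0.0416). The median of the 9 was 0.00 at WL1 and -0.86 at WL2. Among 8 collagens of the basement membrane, 4 were lower at WL1 and 4 at WL2. Col15a1, of the basement membrane zone, fell by 1.88 at WL2 (edgeR adjusted p = 2.03e-05), and the collagen IV chains Col4a2 and Col4a1 fell by 1.63 (edgeR adjusted p = 3.54e-05) and 1.46 (edgeR adjusted p = 0.000123). Col18a1, also named after its values were seen, was the fourth (-1.03, edgeR adjusted p = 0.0115). The median of these 8 was -0.69 at WL1 and -0.75 at WL2.

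**Figure D4:**
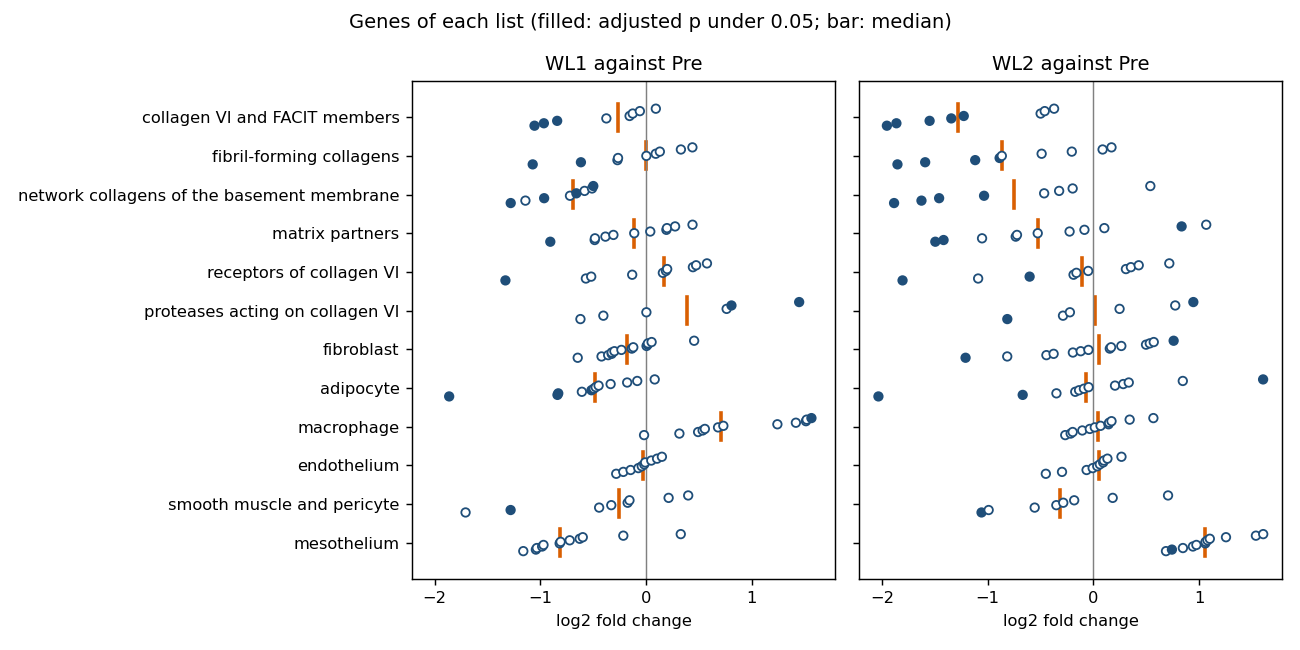
Log2 fold change (horizontal axis) of the tested genes of each list at WL1 and at WL2 against Pre; filled points passed an adjusted p of 0.05 and the orange bar is the median of the list. The members have medians of -0.27 at WL1 and -1.28 at WL2, the fibroblast markers -0.18 and 0.06, and the adipocyte markers -0.49 and -0.07.

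Marker lists of cell types were set beside these changes. Of 14 fibroblast markers, none passed at WL1 against Pre in edgeR's test, where 5 had an unadjusted p under 0.05. At WL2, 1 was lower (Serpinf1, -1.21, edgeR adjusted p = 7.08e-05) and 1 higher (Gsn, 0.76, edgeR adjusted p = 0.0204), and the list had a median of 0.06. Their summed level was 9787 to 12720 CPM in Pre, 10590 to 10880 in WL1 and 14070 to 17880 in WL2, most of it from Gsn, which encodes gelsolin. Without Gsn, the other 13 markers summed to 2150 to 2875 CPM in Pre, 1888 to 2622 in WL1 and 2038 to 2241 in WL2, ranges that overlap. Of 12 adipocyte markers, 11 were negative at WL1 against Pre (median -0.49), and 8 had an unadjusted edgeR p under 0.05. Of these, 4 passed as lower, of which Plin1 and Retn fall outside the naming rule. At WL2 against Pre, 7 were negative and 5 positive (median -0.07), and at WL2 against WL1, 11 were positive. At WL2 against Pre, Lep (leptin, -2.03, edgeR adjusted p = 2.03e-05) and Cidec (a lipid droplet protein, -0.67, edgeR adjusted p = 0.00456) were lower. Cfd (adipsin, 1.61, edgeR adjusted p = 0.0299) was higher.

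Of 12 macrophage markers, 11 were positive at WL1 (median 0.70) and 1, Msr1, passed (1.56, edgeR adjusted p = 0.0403, named after its values were seen); their sum was 1784 to 3400 CPM in Pre, 3321 to 6307 in WL1 and 1980 to 3595 in WL2. Of 12 markers of mesothelium, the lining of the fat depot, 11 were negative at WL1 against Pre (median -0.81) and none passed. All 12 were positive at WL2 against Pre (median 1.06), and 1 passed (Cldn15, 0.74, edgeR adjusted p = 0.0197). At WL2 against WL1 all 12 were positive (median 1.89), and none passed. The sum was 117 to 524 CPM in Pre, 145 to 387 in WL1 and 401 to 991 in WL2. None of 10 endothelial markers passed, with sums of 1907 to 2806 CPM in Pre and 2097 to 2491 in WL2. Of 8 smooth muscle and pericyte markers 1 passed at WL2 against Pre, Acta2 (-1.06, edgeR adjusted p = 0.000560). Acta2 was also the 1 that passed at WL1 (-1.28, edgeR adjusted p = 0.000532). At WL2 against Pre, 6 of the 8 were negative and 2 positive. Their sum was 870.4 to 1119 CPM in Pre, 609 to 830 in WL1 and 598 to 831 in WL2. Acta2 alone had means of 365, 150 and 176 CPM in these phases and took a large part in the fall of the sum. All 10 lymphocyte markers were negative at WL1 and at WL2 against Pre, where replicate 2 was high, and none passed in edgeR's test (4 and 2 at unadjusted p under 0.05). With limma on log2(FPKM + 1) the calls of Cidec, Gsn and Cfd were lost (limma adjusted p = 0.0774, 0.137 and 0.0603), as they were on log2(FPKM + 0.1) (0.0891, 0.148 and 0.0588). Without WL2 replicate 2 the calls of Gsn, Cfd and Cldn15 were lost (edgeR adjusted p = 0.0928, 0.0968 and 0.0760), as they were without WL2 replicate 3 (0.0735, 0.0913 and 0.0783), without Pre replicate 2 (0.0603, 0.0709 and 0.0529), for Gsn and Cfd without Pre replicate 3 (0.0628 and 0.0832) and for Cldn15 without Pre replicate 1 (0.0525). The part of these cell types in the changes of the members was not tested.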

How the data were processed

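RNA-seq libraries of epididymal adipose tissue (3 each of Pre, WL1 and WL2) were sequenced by a service provider. The authors deposited a table of raw counts per gene and a table of FPKM (fragments scaled by gene length and library total) for the same 9 libraries; the lengths used are the union of each gene's exons. The submitters' processing notes name CASAVA, HISAT, HISAT2 and TopHat2 without their roles; the sources used here do not give the counting program, its strand setting or the annotation release.

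The 18510 of 56748 genes that reached 0.5 CPM (the minimum used by the study) in any 1 library were fitted with edgeR 4.0.16 (TMM scaling, quasi-likelihood test, Benjamini-Hochberg adjustment over all genes) in R 4.3.3, with 1 term per phase over all 9 libraries (6 residual degrees of freedom) and no covariate. The fit was tested on simulated data. Log2 fold changes carry standard errors and 95% intervals. CPM, unless said otherwise, are TMM-scaled. Alternatives were no filter, a filter in at least 3 libraries, DESeq2 1.42.0, other scalings, a replicate block, limma 3.58.1 on log2(FPKM + 1) and log2(FPKM + 0.1), the compared phases alone, and leaving out each library. The test between weeks, the ratios between chains and the alternatives for genes that are no members were added after seeing the data.

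The members and lists were chosen with earlier results of these data known. Besides the members, the rule named per list the 3 genes past the threshold at WL2 against Pre with the largest change and up to 2 of the opposite direction, and per member the 3 other protein-coding genes outside the members (mean of at least 10 CPM) with the highest correlation. Some genes that met this rule are not reported here. Replicates of a phase differed beyond counting noise, and none were identical. Promoters came from RefSeq (GRCm38.p6) and matched 6 of the 8 members.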

Additional observations from a re-analysis of the deposited data

Results flagged for a closer look

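The change from Pre differed between WL1 and WL2 in the same fit for 5 members, each lower at WL2 (edgeR's quasi-likelihood test of WL2 against WL1). This is the comparison of WL2 with WL1 given above and no further result, and 2.37% of all tested genes passed it as lower. The call of Col12a1 was lost under 12 of 18 other settings, and fewer members passed without certain single libraries, as given below. The difference in log2 fold change was -0.71 for Col6a1, -0.90 for Col6a2, -0.85 for Col6a3, -1.22 for Col16a1 and -0.89 for Col12a1. Groups of 3 libraries were too small to screen for outlying samples.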

How the results depend on the processing

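The counts of members past the threshold lay within 1.5 times their value under every alternative except leaving out single libraries. These gave 2 to 3 members at WL1 against Pre, 5 to 6 at WL2 against Pre and 1 to 5 at WL2 against WL1, where 1 remained without WL2 replicate 2, 2 without WL2 replicate 3, 2 without WL1 replicate 3 and 3 without WL1 replicate 1. Of 449 alternative values for single members, 412 kept direction and side of the threshold, 30 lost the call, 1 gained it and 6 changed sign, none of these called. For Col6a1, Col6a2, Col6a3, Col12a1 and Col16a1 the call at WL2 against Pre held in all 18 alternatives.

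The sign changes were all at WL1 against Pre: Col6a5 at -0.01 by limma on log2(FPKM + 0.1), -0.03 without Pre replicate 2 and -0.40 without WL1 replicate 3; Col6a6 at 0.04 with library totals and 0.04 without WL1 replicate 2; and Col14a1 at 0.05 without WL1 replicate 2. Leaving out each library in turn, these values ranged from -0.40 to 0.36 for Col6a5, -0.21 to 0.04 for Col6a6 and -0.31 to 0.05 for Col14a1. Of 378 values for 21 other named genes, 44 lost the call and 334 did not.

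Over all genes, DESeq2 called 2344 genes at WL1 against Pre (edgeR 1350) and 1935 between WL1 and WL2 (edgeR 681). Without the filter 1668 were called at WL2 against WL1, and 1053 with these phases fitted alone. Leaving out 1 library gave 512 to 1500 calls at WL1 against Pre, 743 to 1688 at WL2 against Pre and 37 to 1351 at WL2 against WL1. The causes were not tested.

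Same-numbered libraries did not deviate together over all genes (correlations of -0.277 to 0.107). These correlations do not settle whether the numbers pair the libraries. For Col6a5 at WL1 against Pre, a replicate block moved the SE from 0.33 to 0.157. With a replicate block, 844 genes were called at WL1 against Pre, 1399 at WL2 against Pre and 330 at WL2 against WL1, and 3, 5 and 4 members. With 3 libraries per phase, intervals of Col6a5 and Col14a1 leave changes of moderate size undecided.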
